A study of Mus musculus with 6 samples.

Results

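The latrophilins (Adgrl1, Adgrl2 and Adgrl3), the teneurins (Tenm1, Tenm2, Tenm3 and Tenm4) and the fibronectin leucine-rich transmembrane proteins (Flrt1, Flrt2 and Flrt3) are 3 families of cell-surface proteins that bind one another across the synaptic cleft. These 10 genes, of 49315 in the count tables, were taken by symbol and followed in mouse cerebral cortex. They were chosen by the measured read counts of this comparison as well as by family, because Adgrl2 and Tenm3 were known to move in opposite directions between the shFabp7 and shScr groups. The levels and fold changes of the 10 genes are therefore given as a description, and no p-value is attached to them.

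Latrophilins are adhesion G protein-coupled receptors, and the first of them was found as a receptor of the black widow spider toxin alpha-latrotoxin. Teneurins and FLRTs are ligands of latrophilins, and FLRTs also bind Unc5 receptors, through which they repel migrating neurons and axons. In the mouse hippocampus, Tenm3 and Adgrl2 occupy complementary territories and sort axons by attraction between teneurins and repulsion between the teneurin and the latrophilin.

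Cortex RNA was compared between 3 libraries of the shFabp7 group and 3 of the shScr group. The mice were wild type and all received an AAV-PHP.eB vector, at 21 days of age, that carries GFP and an shRNA under a Gfap promoter, which is active mainly in astrocytes. The vector was AAV-PHP.eB-Gfap-GFP-shFABP7 in the shFabp7 group and AAV-PHP.eB-Gfap-GFP-shScr, with a scrambled shRNA, in the shScr group. From the age of 4 months, all mice of both groups received 3 weekly injections of lipopolysaccharide (LPS, an inflammatory component of bacterial envelopes) at 1 mg/kg, and cortex was taken 24 h after the last. Neither a group without LPS nor one without vector was analysed here. The labels do not say whether each library is a separate animal, so the errors measure the spread between these libraries.

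Total counts were 16966118, 16914012 and 18991235 in shFabp7 libraries 1 to 3, and 17789433, 18760154 and 18105596 in shScr libraries 1 to 3. Fabp7, the target of the shRNA, is a fatty acid-binding protein of astrocytes. It had 93, 41 and 66 reads in shFabp7 and 484, 285 and 290 in shScr. It was thus lower in each shFabp7 library than in any shScr library, as were 11.5% of all genes tested. The log2 fold change of Fabp7 was -2.31 ± 0.35 (SE). Its adjusted p was 0.0704 in edgeR's quasi-likelihood test, so Fabp7 did not pass the threshold used below. All 12 cortical excitatory markers were detected. CPM are counts relative to library size, after scaling with trimmed means (TMM). Read from Xist and Y-linked genes, shFabp7 held 1 male and 2 female libraries and shScr 2 male and 1 female. The female call of shFabp7 library 2 is less clean, with 223 reads of Y-linked genes. The other female libraries had 36 (shFabp7 library 3) and 27 (shScr library 3). The source of these reads was not tested.

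Of the 17185 genes with enough reads to test, 20 (0.116%) passed an adjusted p of 0.05 in edgeR's quasi-likelihood test. All 10 latrophilin, teneurin and FLRT genes were among those tested, and 2 of them, Adgrl2 (higher in shFabp7, as were 0.0582% of all tested genes at this threshold) and Tenm3 (lower, likewise 0.0582%), were among the 20. Since this comparison was used to choose the genes, nothing is read from that count. The groups did not overlap for 6 of the 10, with Adgrl1, Adgrl2 and Flrt2 higher and Tenm1, Tenm2 and Tenm3 lower in all 3 shFabp7 libraries, where 22.9% of all tested genes had groups that did not overlap (11.4% higher and 11.5% lower). Over the 10 genes the median log2 fold change was -0.010, against -0.0065 for all genes tested.

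**Figure D1:**
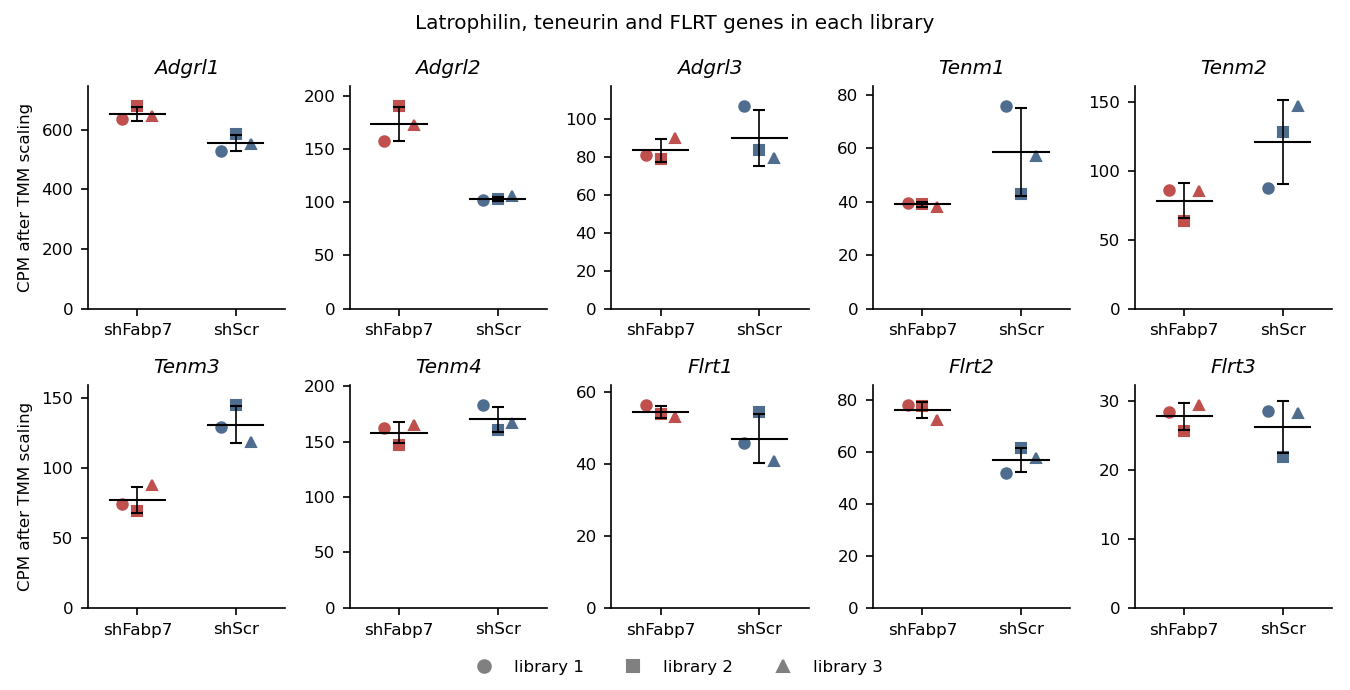
CPM of each of the 10 genes in 3 shFabp7 libraries (red) and 3 shScr libraries (blue), with the mean (line) and SD (bars). The shFabp7 libraries lie above every shScr library for Adgrl1, Adgrl2 and Flrt2 and below every one for Tenm1, Tenm2 and Tenm3.

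Adgrl2, a latrophilin that acts at postsynaptic sites of hippocampal pyramidal neurons in mice, had 2639, 3126 and 3230 reads in shFabp7 libraries 1 to 3, against 1870, 1928 and 1934 in shScr. These correspond to 158, 190.1 and 172 CPM in shFabp7 and 102, 103 and 106 CPM in shScr. The lowest shFabp7 library lay well above the highest shScr library, and the shScr libraries were nearly equal. The mean was 173 ± 16.2 CPM in shFabp7 and 103 ± 1.995 CPM in shScr (SD, n = 3 each), and the log2 fold change was 0.75 ± 0.073 (SE). Adgrl2 spans positions 148815583 to 148990555 of chromosome 3, minus strand (ENSMUSG00000028184, GRCm38).

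Tenm3, a teneurin that matches axons to targets in the visual system and the hippocampus, had 1245, 1140 and 1647 reads in shFabp7 and 2380, 2723 and 2177 in shScr. Its level was 74.4, 69.3 and 87.9 CPM in shFabp7 and 129.5, 145 and 119 CPM in shScr. The highest shFabp7 library, library 3, lay below the lowest shScr library, also library 3. Mean levels were 77.2 ± 9.60 CPM in shFabp7 and 131 ± 13.1 CPM in shScr (SD, n = 3 each), and the log2 fold change was -0.76 ± 0.10 (SE), so that shFabp7 had 58.9% of the shScr level. Tenm3 spans positions 48227682 to 48843951 of chromosome 8, minus strand (ENSMUSG00000031561).

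The other 8 genes lie on chromosomes 8 (Adgrl1), 5 (Adgrl3), X (Tenm1), 11 (Tenm2), 7 (Tenm4), 19 (Flrt1), 12 (Flrt2) and 2 (Flrt3). As counted, FLRT genes are made of 2 to 5 exon blocks over 13.7 to 93.0 kb, latrophilin genes of 24 to 35 over 41.9 to 805 kb, and teneurin genes of 34 to 42 over 616 to 1229 kb.

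The ratio of Adgrl2 to Tenm3 reads within a library does not depend on depth or scaling. It was 2.12, 2.74 and 1.96 in shFabp7 and 0.786, 0.708 and 0.888 in shScr. Tenm3 reads outnumbered Adgrl2 reads in every shScr library, and the reverse held in every shFabp7 library. Within the latrophilins, the ratio of Adgrl2 to Adgrl1 reads was 0.248, 0.280 and 0.267 in shFabp7 and 0.192, 0.175 and 0.192 in shScr. Within the teneurins, the ratio of Tenm3 to Tenm4 reads was 0.460, 0.471 and 0.533 in shFabp7 and 0.710, 0.901 and 0.714 in shScr. Neither of these ratios overlapped between the groups. Adgrl2 and Tenm3 were chosen for their opposite directions in these counts, so all these ratios restate that choice and are description only.

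The start regions of Adgrl2 and Tenm3 are shown because these genes moved in opposite directions. RefSeq (GRCm38.p6) gives windows of 250 bases before to 50 after a gene's start for 9 of the 10 genes, 12 windows in all. Both windows below are read 5′ to 3′ on the gene's strand, and capitals mark matches on either strand to the cyclic AMP response element TGACGTCA, its first 5 letters TGACG, or the TATA letters TATAAA.
Adgrl2, chr3:148954586-148954885, minus strand: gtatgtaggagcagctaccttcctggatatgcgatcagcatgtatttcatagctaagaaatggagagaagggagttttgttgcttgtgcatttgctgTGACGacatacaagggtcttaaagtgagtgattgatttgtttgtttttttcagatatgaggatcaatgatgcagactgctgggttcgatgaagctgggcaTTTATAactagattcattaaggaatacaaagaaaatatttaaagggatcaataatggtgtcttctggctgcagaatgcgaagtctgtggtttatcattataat
Tenm3, chr8:48674641-48674940, minus strand: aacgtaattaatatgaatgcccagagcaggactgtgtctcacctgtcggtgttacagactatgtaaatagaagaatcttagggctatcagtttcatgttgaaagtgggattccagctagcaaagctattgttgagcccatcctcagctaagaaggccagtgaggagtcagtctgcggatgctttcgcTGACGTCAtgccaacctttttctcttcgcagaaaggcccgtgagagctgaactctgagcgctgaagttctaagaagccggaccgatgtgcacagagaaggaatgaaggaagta

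The Tenm3 window holds the full element TGACGTCA from position -63 relative to the start, counted with -1 as the base before it. It is a palindrome, so both matches to TGACG in that window lie within it. The Adgrl2 window holds TGACG at position -153 and TTTATA, the reverse complement of TATAAA, at -53. Of all 32851 windows, 1.79% hold TGACGTCA, 20.8% hold TGACG and 13.6% hold TATAAA. Among the other 10 windows, that of Flrt2 holds TGACG at position 43, after its start, and no other window has a match to it, while TATAAA also occurs in windows of Adgrl3 and Tenm1. No match to TGANTCA, the AP-1 element, lies in any of the 12 windows, against 7.81% of all windows. These starts lie inside the genes as counted, 35920 bases from the 5′ end for Adgrl2 and 169261 for Tenm3. A match describes letters only, and binding was not measured.

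Adgrl1, the founding latrophilin and a receptor found at presynaptic terminals, had 636, 679 and 646 CPM in shFabp7 and 530.0, 586 and 551 CPM in shScr. The groups did not overlap, but the difference was small beside that of Adgrl2, with a log2 fold change of 0.23 ± 0.066 (SE). Adgrl3, a latrophilin that binds Flrt3 and whose human gene has been linked to attention deficit disorder, had 81.2, 79.0 and 90.1 CPM in shFabp7 and 107, 83.5 and 79.4 CPM in shScr. Its groups overlapped, with shScr library 1 the highest, and the log2 fold change was -0.11 ± 0.11 (SE). Without shScr library 1 the value for Adgrl3 was 0.036, so its direction changed without that library.

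**Figure D2:**
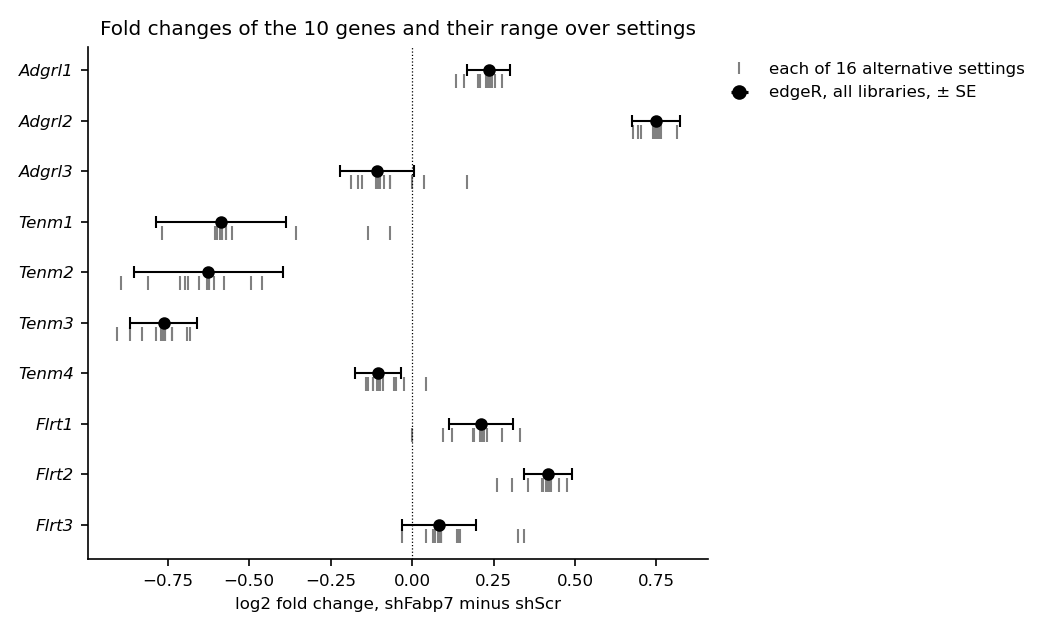
Log2 fold change of each gene, shFabp7 minus shScr, as the edgeR estimate with its SE (black) and the values under 16 alternative settings (grey ticks). Adgrl2 stayed between 0.678 and 0.812 and Tenm3 between -0.907 and -0.683, while Tenm1 ranged from -0.767 to -0.0667.

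Among the other teneurins, Tenm2, a high-affinity ligand of Adgrl1, had 86.1, 63.7 and 85.0 CPM in shFabp7 and 87.3, 128 and 147 CPM in shScr. Its highest shFabp7 library and its lowest shScr library, both number 1, were nearly equal, and the log2 fold change was -0.63 ± 0.23 (SE). Tenm1, the X-linked teneurin, had 39.6, 39.0 and 38.1 CPM in shFabp7 and 75.6, 42.7 and 57.0 CPM in shScr. The shFabp7 libraries were nearly equal, and the shScr libraries were spread, with library 2 close to shFabp7 and library 1 the highest. Its log2 fold change was -0.59 ± 0.20 (SE), and -0.36 without shScr library 1. Tenm4, which in mice is needed for myelination of small axons, had 162, 147 and 165 CPM in shFabp7 and 182, 161 and 166 CPM in shScr. Its groups overlapped, with a log2 fold change of -0.10 ± 0.071 (SE).

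Of the FLRT genes, Flrt2, a ligand of latrophilins and of Unc5 receptors, had 78.1, 77.9 and 72.6 CPM in shFabp7 and 52.0, 61.5 and 57.7 CPM in shScr. Every shFabp7 library was above every shScr library, and the log2 fold change was 0.42 ± 0.074 (SE). Flrt1, which also binds latrophilins, had 56.2, 53.9 and 53.1 CPM in shFabp7 and 45.7, 54.4 and 40.9 CPM in shScr. Its groups overlapped through shScr library 2, and the log2 fold change was 0.21 ± 0.10 (SE). Flrt3, a synaptic ligand of Adgrl3, had 28.3, 25.6 and 29.3 CPM in shFabp7 and 28.5, 21.9 and 28.3 CPM in shScr. Those values interleaved, and the log2 fold change was 0.084 ± 0.11 (SE).

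Levels of different genes were compared per length, as TPM, a share of all length-scaled counts, computed from the counts and the exon length in the files. That length covers the exons of all isoforms, so a gene with many rarely used exons is set too low. Summed over each family, latrophilins had 324, 341 and 334 TPM in shFabp7 and 275, 275 and 272 TPM in shScr. Teneurins had 89.3, 75.7 and 94.0 TPM in shFabp7 and 122, 122 and 127 TPM in shScr. FLRTs had 92.3, 86.4 and 88.5 TPM in shFabp7 and 74.9, 74.7 and 72.4 TPM in shScr. None of the 3 family sums overlapped between the groups: latrophilin and FLRT sums were higher and the teneurin sum was lower in shFabp7. The sums add up the values of the chosen genes given above, so they are description only. Among single genes, 22.9% of all tested had groups that did not overlap in CPM.

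**Figure D3:**
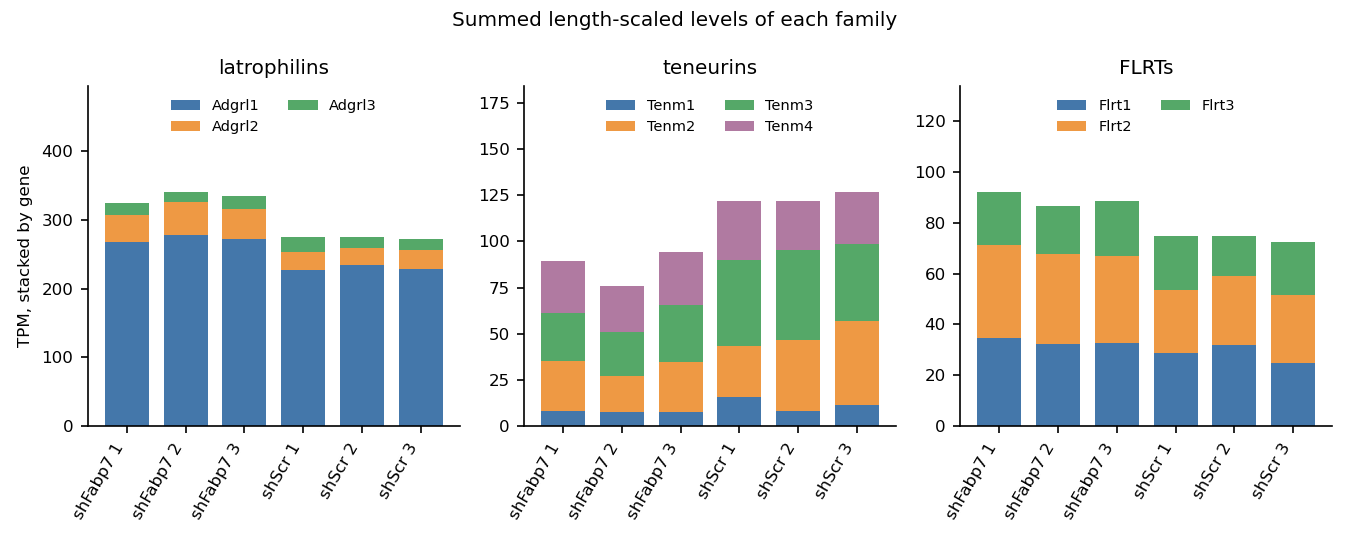
TPM of each gene stacked within its family, for shFabp7 libraries 1 to 3 on the left and shScr libraries 1 to 3 on the right of each panel. The teneurin bars are lower in shFabp7 (mean 86.3 ± 9.46 TPM) than in shScr (mean 123 ± 2.98 TPM, SD, n = 3 each).

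Adgrl1 made up most of the latrophilin sum, with 82.5, 81.6 and 81.4% in shFabp7 and 82.4, 85.1 and 84.4% in shScr. The Adgrl2 share of that sum was 12.4, 13.8 and 13.1% in shFabp7 and 9.57, 9.02 and 9.77% in shScr, with no overlap. Within the teneurins, the Tenm4 share was 31.2, 32.5 and 30.2% in shFabp7 and 26.1, 21.6 and 22.3% in shScr, higher in every shFabp7 library although the Tenm4 level itself overlapped. The Tenm3 share was 29.4, 31.5 and 33.0% in shFabp7 and 38.1, 40.0 and 32.7% in shScr, where shFabp7 library 3 and shScr library 3 overlapped. Flrt2 held 39.6, 41.1 and 38.4% of the FLRT sum in shFabp7 and 33.0, 36.6 and 36.9% in shScr.

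The order of the genes by TPM differed between the groups below Adgrl1, which was far above the rest in both. In shFabp7 the next was Adgrl2 at 43.7 ± 3.49 TPM, followed by Flrt2 at 35.4 ± 1.27 and Flrt1 at 33.3 ± 1.24 TPM (SD, n = 3), whose ranges overlapped. In the shFabp7 libraries Tenm3, Tenm4, Tenm2 and Flrt3 followed, each overlapping its neighbour in that order, and Adgrl3 lay below them. In shScr the next after Adgrl1 was Tenm3 at 45.5 ± 3.67 TPM, and from there Tenm2, Tenm4, Flrt1, Flrt2 and Adgrl2 each overlapped its neighbour, with Adgrl2 at 25.9 ± 0.943 TPM. Tenm1 was the lowest in both groups, at 7.86 ± 0.183 TPM in shFabp7 and 11.8 ± 3.70 TPM in shScr.

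The genes also differed in how much they varied within a group. Among the shScr libraries, the SD was 28.3% of the mean CPM for Tenm1 and 25.2% for Tenm2, but 1.93% for Adgrl2. In shFabp7 the same measure was 1.97% for Tenm1, 16.2% for Tenm2 and 9.35% for Adgrl2.

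The summed levels of some marker lists differed between the groups, although 0 genes of any marker list passed the threshold in edgeR's quasi-likelihood test. Summed over the 12 cortical excitatory markers, levels ran from 6249 to 7142 CPM in shFabp7 and from 4304 to 5775 CPM in shScr, and the groups did not overlap. Camk2a made up most of this sum, with a mean of 4142 CPM in shFabp7 and 3197 CPM in shScr. Slc17a7, the next highest, overlapped between the groups. In that list 11 of 12 genes had a log2 fold change above 0, 3 had an unadjusted p under 0.05 in edgeR and 3 passed in DESeq2. Over all genes tested, 16.8% had an unadjusted p under 0.05 (8.44% higher and 8.32% lower). In DESeq2, 3.95% passed (2.19% higher and 1.76% lower). The 9 hippocampal markers ran from 244 to 281 CPM in shFabp7 and from 283 to 447 CPM in shScr, and the 12 thalamic and hypothalamic markers ran from 30.7 to 35.4 CPM in shFabp7 and from 52.0 to 171 CPM in shScr. Of those tested, 8 of 9 hippocampal and 9 of 9 thalamic and hypothalamic genes were below 0, with 2 and 4 at an unadjusted p under 0.05 and 2 and 2 called in DESeq2. In each of these 2 lists 3 of the 9 genes were lower without overlap (11.5% of all genes). Zbtb20 (mean 128 CPM in shFabp7 and 168 in shScr) and Wfs1 (97.8 and 148) made up most of the hippocampal sum. Wfs1 overlapped between the groups. The 7 microglia markers ran from 332 to 372 CPM in shFabp7 and from 378 to 385 CPM in shScr, with 6 of 7 below 0, 3 at an unadjusted p under 0.05 and 1 called in DESeq2. The sums of the other 6 lists overlapped between the groups, among them the 8 striatal markers, which ran from 394 to 1243 CPM in shFabp7 and from 458 to 1126 CPM in shScr, and the 8 choroid plexus and ependymal markers, which ran from 10.2 to 17.8 CPM in shFabp7 and from 15.5 to 34.4 CPM in shScr. An overlapping sum can hide opposite changes: of the 9 astrocyte markers, 6 had an unadjusted p under 0.05 in edgeR (3 higher and 3 lower). In DESeq2, 0 of the astrocyte markers passed. The rest of these 6 lists had 0 to 3 genes each with an unadjusted p under 0.05. No marker in these lists was at 0 in all 6 libraries. The part of these markers in the values of the 10 genes was not tested beyond the fit with the score below. A regional score, the mean log2 CPM of hippocampal, striatal, thalamic, hypothalamic and choroid plexus markers minus that of the cortical excitatory markers, was -5.08, -5.60 and -5.00 in shFabp7 and -2.76, -4.79 and -4.08 in shScr. In bulk tissue, fewer cells of a type and less RNA per cell cannot be told apart.

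With the regional score as a covariate, the log2 fold change was 0.69 for Adgrl2, -0.79 for Tenm3, -0.90 for Tenm2 and -0.067 for Tenm1. The score did not overlap between the groups, so this fit cannot fully separate the score from the group. Its values are given as a description. Across the 3 shScr libraries Tenm1, Tenm4 and Flrt3 had the order of the score, highest in library 1 and lowest in library 2. Adgrl1 and Flrt2 had the reverse order, and the other genes had neither. The cause of these orders was not tested. For Flrt2 the value with this covariate was 0.26, and for Adgrl1 0.14. Against shScr library 2 alone, the shScr library whose score was nearest to shFabp7, the values were 0.76 for Adgrl2, -0.91 for Tenm3, -0.71 for Tenm2 and -0.14 for Tenm1. That library is assumed to vary like the shFabp7 libraries.

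**Figure D4:**
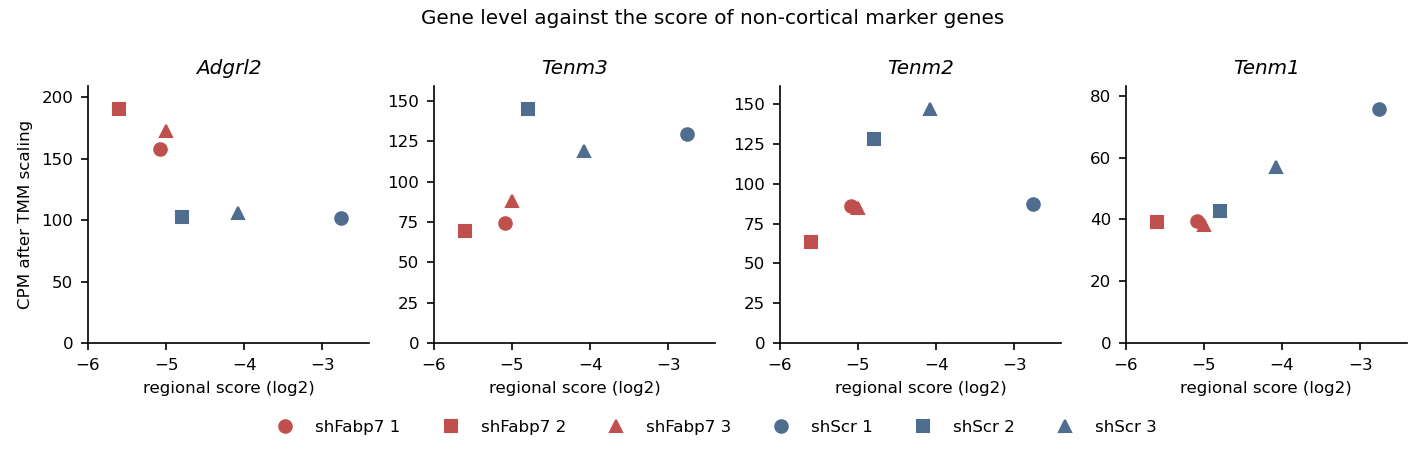
CPM of Adgrl2, Tenm3, Tenm2 and Tenm1 against the regional score (log2 units, higher with more RNA of non-cortical markers) in each shFabp7 (red) and shScr (blue) library. shScr library 1 has the highest score, and shScr library 2, at -4.79, lies next to the shFabp7 libraries, with 103 CPM of Adgrl2 and 145 CPM of Tenm3.

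Reads of overlapping genes can be shared, because whether counting used strand is not stated here. Gm19744, a noncoding transcript on the opposite strand, shares 114 bp of exon with Tenm3 (1.11% of its exon length) and had 1.49, 1.28 and 1.71 CPM in shFabp7 and 3.65, 5.05 and 4.75 CPM in shScr, with a log2 fold change of -1.58. Its reads numbered 25, 21 and 32 in shFabp7 and 67, 95 and 87 in shScr, few beside those of Tenm3. Gm43573, antisense to Adgrl2 over 202 bp, had 13, 8 and 11 reads in shFabp7 and 5, 6 and 4 in shScr and was too low to test. Other opposite-strand partners share exon sequence with Adgrl1 (Gm10644, 1107 bp, as well as the miRNA genes Gm44450 and Gm44330), Adgrl3 (Gm16054, 1582 bp), Tenm1 (Sh2d1a, 1465 bp) and Tenm4 (C230038L03Rik, 988 bp). Gm10644 and Gm16054 had log2 fold changes of 0.11 and 0.0032, Gm44450 had -0.018, and Gm44330, Sh2d1a and C230038L03Rik were too low to test. Flrt1 lies within Macrod1 and Flrt3 within Macrod2, on the opposite strand and with no shared exon. Macrod1 and Macrod2, which encode hydrolases of ADP-ribose marks, had log2 fold changes of -0.075 and 0.017.

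The genes nearest to Adgrl2 by the root mean square difference of centred log2 CPM over the 6 libraries, among 15672 genes with a mean of at least 1 CPM, were Car8 (0.0434), Btbd17 (0.0676) and Trim72 (0.0696). Car8 encodes a carbonic anhydrase-related protein without enzyme activity, and it had 12.4, 16.4 and 13.7 CPM in shFabp7 and 8.33, 8.40 and 8.57 CPM in shScr. The nearest to Tenm3 were Gm16740 (0.0986), Gbp9 (0.106) and Gadd45g (0.112). Gadd45g, a stress-inducible growth arrest gene, had 8.91, 6.93 and 8.86 CPM in shFabp7 and 13.8, 13.6 and 12.7 CPM in shScr.

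Genes that interact with these families were not used to choose the families, and they were tested. Their lists, and those of the other adhesion genes below, were drawn up with earlier results of these data known. The counts in these lists are therefore not an independent test. Of 14 further binding partners (Unc5 receptors, Robo receptors, FGF receptors, neurexins, Cntn6 and Dag1), 0 passed the threshold in edgeR's quasi-likelihood test, 5 had an unadjusted p under 0.05 (1 higher and 4 lower in shFabp7), and 1 passed in DESeq2 (lower). Over all 17185 genes, 16.8% had an unadjusted p under 0.05 (8.44% higher and 8.32% lower) and 3.95% passed in DESeq2 (2.19% higher and 1.76% lower). Nrxn2, a presynaptic neurexin and among the most abundant of them by CPM, had a log2 fold change of 0.0067 ± 0.074 (SE). Unc5c, a receptor of netrin and FLRT proteins, was the member that passed in DESeq2 and is named after its values were seen. It had 30.2, 31.3 and 34.4 CPM in shFabp7 and 50.8, 38.4 and 46.1 CPM in shScr, with an edgeR adjusted p of 0.084. The list had a median of -0.063, with 9 of 14 below 0.

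Of 10 genes that act downstream of latrophilins (Shank scaffolds, G protein alpha subunits and beta-arrestins), 0 passed in edgeR, 5 had an unadjusted p under 0.05, all higher in shFabp7 (8.44% of all genes), and 3 passed in DESeq2, also higher (2.19% of all genes). The median log2 fold change was 0.14, with 8 of 10 above 0, against -0.0065 over all genes tested. Shank1, which binds the tail of latrophilins at the postsynaptic density, had 985, 1080.1 and 964 CPM in shFabp7 and 642, 898 and 787 CPM in shScr, a log2 fold change of 0.38 ± 0.12 (SE) and an edgeR adjusted p of 0.174. Gnao1, the G protein subunit Go, had a log2 fold change of 0.13 ± 0.064 (SE) and an edgeR adjusted p of 0.344. The summed cortical excitatory markers were higher in the same libraries, and their part in these values was not tested.

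Of 13 other adhesion G protein-coupled receptors, 0 passed in edgeR, 3 had an unadjusted p under 0.05 (2 higher and 1 lower) and 2 passed in DESeq2 (1 higher and 1 lower), where 16.8% and 3.95% of all genes did. Adgrb1, a brain receptor of phagocytosis and synapse formation, had 793, 850.2 and 781 CPM in shFabp7 and 584, 692 and 628 CPM in shScr, a log2 fold change of 0.35 ± 0.078 (SE) and an edgeR adjusted p of 0.0909. Adgrb2 had 0.27 ± 0.081 (SE). Celsr1, a planar cell polarity cadherin named after its values were seen, had 10.4, 9.49 and 9.88 CPM in shFabp7 and 13.5, 15.2 and 13.3 CPM in shScr, a log2 fold change of -0.50 ± 0.11 (SE) and an edgeR adjusted p of 0.0909. Adgrb1 and Celsr1 were the pair that passed in DESeq2. Adgrl4, a receptor of endothelial cells in the same family as the latrophilins, had 33.7, 33.9 and 37.3 CPM in shFabp7 and 23.6, 36.9 and 30.3 CPM in shScr, which overlapped. It is named after its values were seen.

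Of 31 genes of other synaptic adhesion families, 0 passed in edgeR, 10 had an unadjusted p under 0.05 (5 higher and 5 lower) and 6 passed in DESeq2 (3 higher and 3 lower). Over all genes the shares were 16.8% and 3.95%. Clstn1, a synaptic calsyntenin, had a log2 fold change of 0.35 ± 0.10 (SE), and Ptprs, a presynaptic receptor phosphatase, had 0.092 ± 0.065 (SE). The lowest values in the list were those of Cbln1 and Ntng1, named after their values were seen. Cbln1, a cerebellin that bridges neurexins to glutamate delta receptors, had 5.14, 3.41 and 6.62 CPM in shFabp7 and 18.5, 9.63 and 16.4 CPM in shScr. Ntng1, which encodes netrin-G1 and is abundant in thalamic neurons, had 15.5, 13.4 and 12.6 CPM in shFabp7 and 34.2, 21.97 and 44.5 CPM in shScr. The summed thalamic and hypothalamic markers were lower in the same libraries, although Tcf7l2 and Prkcd in that list overlapped between the groups. Its largest values in shScr library 1 were those of Calb2 (41.1 CPM) and Avp (38.9 CPM), of which Calb2 did not overlap and Avp did. The part of these markers in the values of Cbln1 and Ntng1 was not tested.

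**Figure D5:**
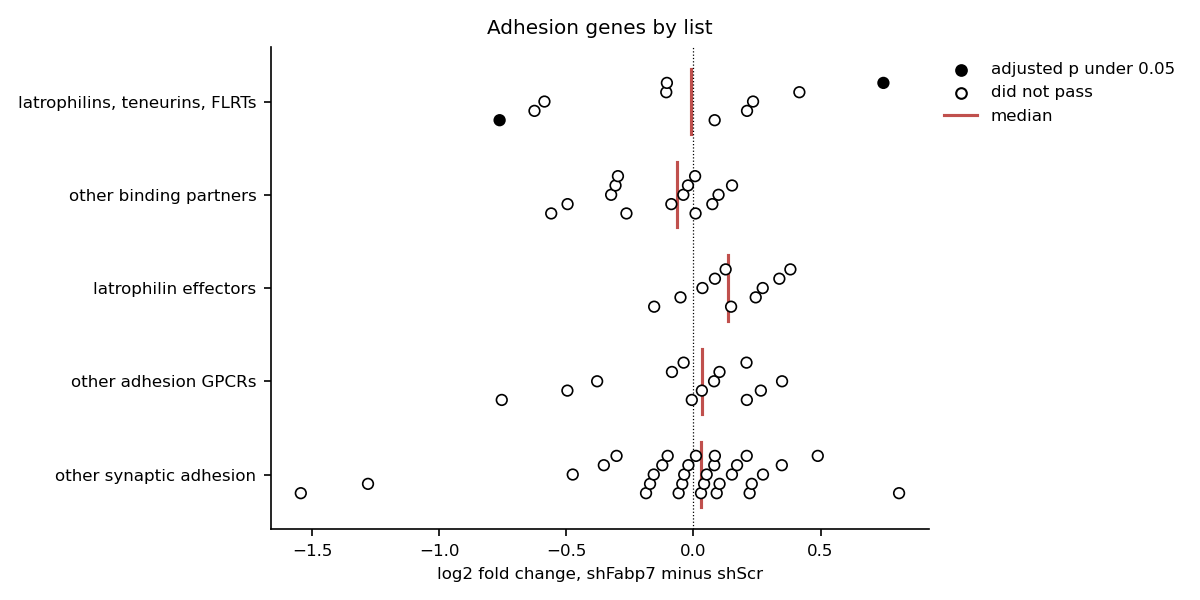
Log2 fold change, shFabp7 minus shScr, of each gene (points, filled where the edgeR adjusted p was under 0.05) in 5 lists, with the list's median (red line). Only Adgrl2 and Tenm3 are filled, and they were chosen for this difference.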

How the data were processed

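RNA was measured in 6 cortex libraries, 3 shFabp7 and 3 shScr, grouped by their titles. The authors deposited raw read counts per gene, not normalized, with the columns of a featureCounts table, per the file headers. Tools named in the submitters' processing notes are STAR 2.5.2b, Subread 1.5.2, Trimmomatic 0.36 and DESeq2, without roles, and the build named is GRCm39. Gene positions follow GRCm38: 44772 of 48970 gene IDs (91.4%) have the same coordinates in the GENCODE M21 annotation. A stranded mRNA kit was used, per the labels' protocols, but whether counting used strand is not stated there.

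Genes were filtered with filterByExpr, scaled by TMM and tested in edgeR 4.0.16 (R 4.3.3, quasi-likelihood, robust, group alone), p-values being adjusted over all genes (Benjamini-Hochberg) and called under 0.05. SEs were derived as the fold change (log2) over the root of F. Alternatives were DESeq2 1.42.0 on the same genes, other scalings and filters, a replicate block, covariates for sex and region, and libraries left out. The fit was checked on simulated counts. Pairs of libraries differed by a chi-square per degree of freedom of 6.32 to 36.3, so none is a copy. Genes with few reads carry the larger errors.

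The members, lists and alternatives were chosen with earlier results of these data known. Named genes were all 10 members, Fabp7, genes overlapping or holding a member, the 3 nearest to Adgrl2 and to Tenm3 (on log2 CPM with 0.5 added), and from each list those past the threshold or, with none, the 2 with the highest mean CPM. 1 gene that the rule names is not reported here.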

Additional observations from a re-analysis of the deposited data

How the results depend on the processing

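Adgrl2 stayed above 0 and Tenm3 below 0 under all 16 alternatives, among them the threshold of 0.1, which leaves fold changes as they are. Both genes were chosen for these directions, so the kept signs are description only. Tenm3 did not pass the threshold with any 1 shFabp7 library left out, nor with sex or the regional score as a covariate. This comparison was used to choose the 10 genes, so nothing is read from their counts, and those over all genes follow. The number of the 10 genes past the threshold, 2 with all libraries, was 6 in DESeq2, 5 with no filter, and 1 (Adgrl2) with sex or with the regional score as a covariate. Leaving out 1 library gave 0 to 5 (0 without shFabp7 library 2 or 3, 1 without shFabp7 library 1, 5 without shScr library 2). Over all genes, the count of 20 became 679 in DESeq2, 1617 with no filter, 120 without shScr libraries 1 and 3 together, 7 with sex as a covariate and 292 at a threshold of 0.1, and leaving out 1 library gave 0 to 900. Beside the counts of 0, 1714 genes had an unadjusted p under 0.05 without shFabp7 library 2 and 2170 without shFabp7 library 3. For the 24 binding partners and effectors, 0 in the reported test became 4 in DESeq2, 8 with no filter, 2 at a threshold of 0.1 and 0 to 5 with 1 library left out. For the 44 other adhesion genes, 0 became 8, 11, 3 and 0 to 7 under the same settings.

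Deviations from the group means correlated across genes at 0.0808, 0.154 and 0.0573 between same-numbered libraries. Between differently numbered libraries the correlations ranged from -0.179 to 0.0989. Whether the numbers pair the libraries cannot be told from these values. With the replicate block, 629 of the 17185 genes tested passed, among them 3 of the 10 (Adgrl2, Tenm3 and Flrt2), 3 partners or effectors and 5 other adhesion genes. Signs turned for genes near 0: Adgrl3 was 0.167 with the regional score and ranged from -0.189 to 0.0362 (without shScr library 1) when 1 library was left out, Tenm4 0.0414 with the regional score, and Flrt3 ranged from -0.0295 (without shScr library 2) to 0.148. The causes were not tested.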
